A study of Rattus norvegicus with 8 samples.

Results

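The 6 genes described here are Mt-co1, Mt-co2, Mt-co3, Mt-atp6, Mt-atp8 and Mt-cyb, protein-coding genes of the rat mitochondrial genome. They were taken by Ensembl identifier and make up 6 of the 32285 genes in the count table. Total RNA was sequenced from the sinoatrial node, where the heartbeat arises in the right atrium, in 4 HFpEF and 4 Control libraries. HFpEF (heart failure with preserved ejection fraction) rats were Dahl salt-sensitive rats (SS/JrHsdMcwiCrl) that ate chow with 8% NaCl for 11 weeks, and Control rats were of the same strain and ate chow with 0.4% NaCl for as long. The labels name no genetic difference between the groups. Salt intake, hypertension and heart failure cannot be told apart, since no group ate the high-salt chow without the disease model. The labels give no age and do not tie a library to a single animal, so the p-values here reflect the spread among libraries, which may be technical.

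The mitochondrial genome encodes a small set of hydrophobic subunits of the respiratory chain, and nuclear genes encode the rest. Mt-co1, Mt-co2 and Mt-co3 make the catalytic core of cytochrome c oxidase (complex IV), which passes electrons to oxygen. Mt-atp6 and Mt-atp8 encode membrane subunits of ATP synthase (complex V), and Mt-cyb encodes cytochrome b, the mitochondrial subunit of the cytochrome bc1 complex (complex III). All of them are copied from the same strand as parts of long transcripts, which are cut at the transfer RNAs that lie between most genes and then given short poly(A) tails. The Mt-atp8 and Mt-atp6 reading frames overlap and share a single messenger RNA. Cardiac muscle, which depends on oxidative metabolism, is rich in these transcripts.

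The 6 genes together took 8.01% of all counts in the series, and the groups overlapped in this share. It was 8.70%, 7.76%, 7.30% and 8.58% in HFpEF replicates 1 to 4, against 7.60%, 7.52%, 8.30% and 8.21% in Control replicates 1 to 4. HFpEF libraries held both the highest and the lowest share. The mean was 8.09% ± 0.666 for HFpEF and 7.91% ± 0.404 for Control (± SD, n = 4 per group), a difference of 0.179 percentage points that was smaller than either SD. Without HFpEF replicate 1 the difference was -0.0247 percentage points, and without HFpEF replicate 3 it was 0.440 percentage points, so its sign depended on which libraries were included. In a bulk sample a different proportion of cardiac muscle cells and a different amount of mitochondrial RNA per cell cannot be told apart.

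**Figure D1:**
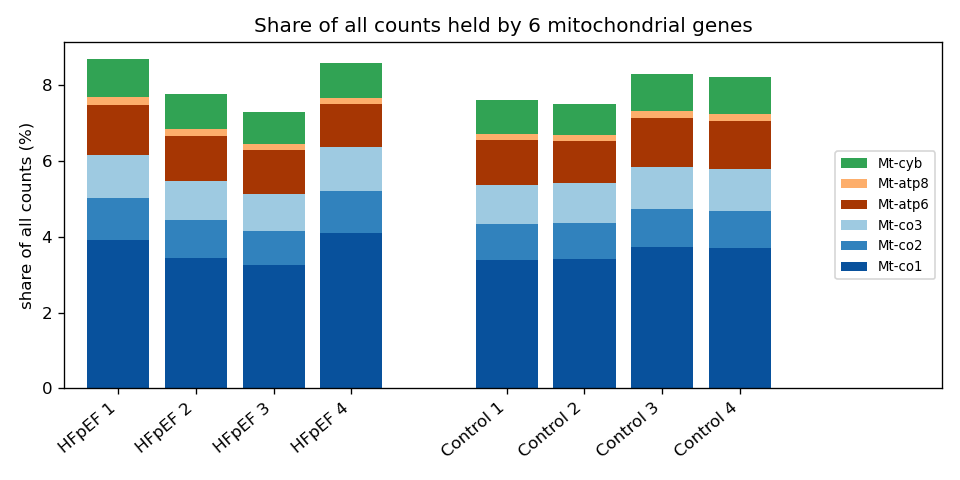
Share of all counts (y axis, percent) held by each of the 6 genes, stacked, in the 4 HFpEF and the 4 Control libraries (x axis). Stacks reach 7.30% to 8.70% in HFpEF and 7.52% to 8.30% in Control, and Mt-co1 is the largest block in every library.

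None of the 6 genes passed the test between HFpEF and Control. Their log2 fold changes (HFpEF over Control) lay between 0.00034 and 0.10, with a median of 0.0396, against a median of -0.00409 over the 16313 genes tested. Over those genes 316 (1.94%) passed edgeR's quasi-likelihood test at a Benjamini-Hochberg adjusted p under 0.05, of which 251 (1.54%) were higher and 65 (0.398%) lower in HFpEF. Of the 6, 0 passed it in either direction, 0 reached an unadjusted p under 0.05 (19.6% of all tested genes did) and 0 had groups that did not overlap (12.5% of all tested genes did). DESeq2 called 1248 of the 16313 genes (7.65%) and limma-voom 223 (1.37%), and each called 0 of the 6. The background count by edgeR was not stable: leaving out Control replicate 1 gave 22 genes, leaving out Control replicate 3 gave 24 and taking the replicate number as a block gave 6, and 0 of the 6 were called in any of these fits. Among the 65 most abundant genes, those averaging 1000 normalised CPM (counts per 1000000 of the TMM-scaled library total) or more, to which the 6 belong, 1 was called (1.54%).

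Mt-co1 (ENSRNOG00000034234), whose product carries the haem and copper site where oxygen is reduced, was the most counted of the 6 and the 4th most counted gene of all. It stood at 39994, 34551, 34273 and 39104 normalised CPM in HFpEF replicates 1 to 4, against 32915, 33067, 37922 and 37615 normalised CPM in Control replicates 1 to 4. In each group 2 libraries were high and 2 were low, and the ranges overlapped over most of their width. The mean level was 36980 ± 2990 CPM in HFpEF and 35380 ± 2762 CPM in Control (± SD, n = 4 per group), a fold of 1.05 with a 95% interval of 0.897 to 1.22 (edgeR adjusted p = 0.769).

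Mt-co2 (ENSRNOG00000030371), whose product takes electrons from cytochrome c, had the highest fold of the 6. It stood at 11173, 10126, 9564 and 10497 normalised CPM in HFpEF replicates 1 to 4, against 9263, 9132, 10233 and 9907 normalised CPM in Control replicates 1 to 4. HFpEF replicates 1 and 4 were above every Control library, whereas HFpEF replicates 2 and 3 lay within the Control range. The mean level was 10340 ± 675 CPM in HFpEF and 9634 ± 524 CPM in Control (± SD, n = 4 per group). The log2 fold change was 0.10, with 0.079 as its standard error (edgeR adjusted p = 0.512). In fold terms the 95% interval ran from 0.948 to 1.21.

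Mt-co3 (ENSRNOG00000030700), the third mitochondrial subunit of the oxidase core, stood at 11675, 10317, 10378 and 11292 normalised CPM in HFpEF replicates 1 to 4, against 10081, 10204, 11318 and 11351 normalised CPM in Control replicates 1 to 4. The groups nearly coincided, with HFpEF replicate 1 the only library beyond the top of the Control range. The fold was 1.02 with a 95% interval of 0.895 to 1.15 (edgeR adjusted p = 0.903).

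**Figure D2:**
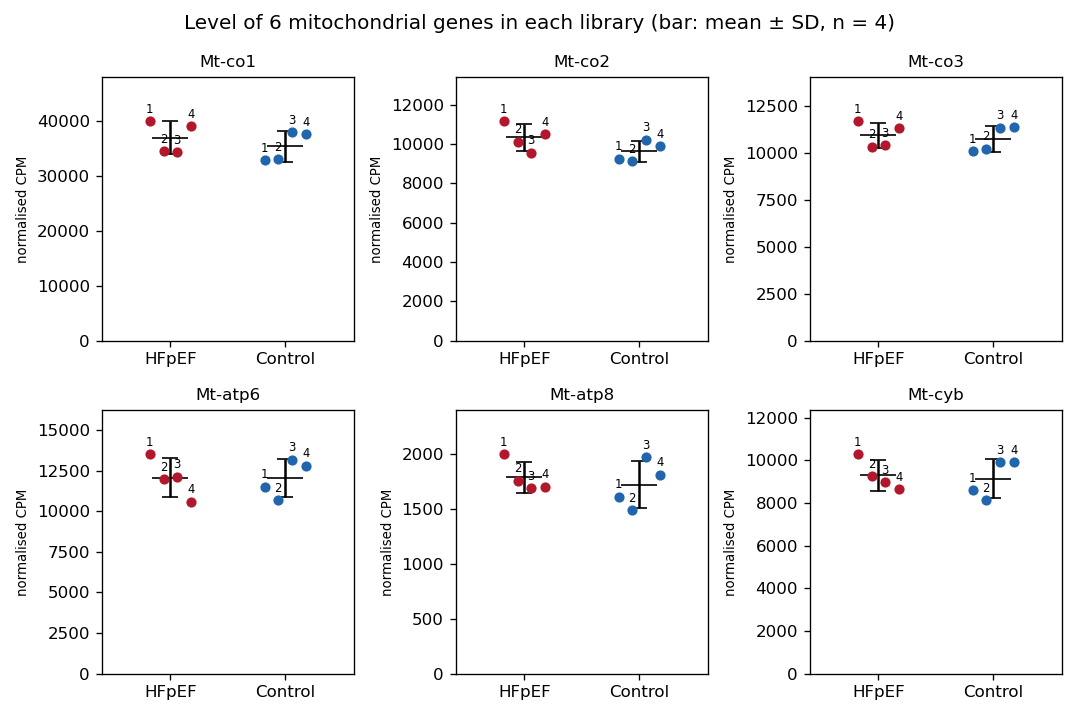
Normalised CPM (y axis, from 0) of each gene in the HFpEF and Control libraries (x axis). Each point is a library with its replicate number and the bars are the mean and SD of 4 libraries; the groups overlap for all 6 genes, and Mt-atp6 is lowest in HFpEF replicate 4.

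Mt-atp6 (ENSRNOG00000031979), whose product forms the part of the proton channel beside the rotor ring of ATP synthase, had the fold closest to 1. It stood at 13536, 11986, 12147 and 10601 normalised CPM in HFpEF replicates 1 to 4, against 11523, 10713, 13193 and 12829 normalised CPM in Control replicates 1 to 4. The highest and the lowest normalised CPM of all 8 libraries were both in HFpEF, in replicates 1 and 4. The lowest place depended on the scaling. As a share of all counts, Mt-atp6 was lowest in Control replicate 2 (1.107%), just below HFpEF replicate 4 (1.111%). The mean level was 12067 ± 1200 CPM in HFpEF and 12065 ± 1151 CPM in Control (± SD, n = 4 per group), a fold of 1.00 with a 95% interval of 0.851 to 1.175 (edgeR adjusted p = 0.999).

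Mt-atp8 (ENSRNOG00000033299), which encodes a short membrane subunit of the same enzyme, stood at 2003, 1760, 1691 and 1705 normalised CPM in HFpEF replicates 1 to 4, against 1613, 1489, 1973 and 1817 normalised CPM in Control replicates 1 to 4. HFpEF replicate 1 was the highest library and Control replicate 2 the lowest, and the other 3 HFpEF libraries lay within the Control range. The fold was 1.04 with a 95% interval of 0.887 to 1.22 (edgeR adjusted p = 0.810). How reads from the stretch shared with Mt-atp6 were assigned is not given in the sources used here, so the split between these 2 genes is less certain than their sum. RSEM can give a count that is not whole where it divides reads between genes, and all 48 values of the 6 genes were whole within 0.005.

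Mt-cyb (ENSRNOG00000031766), which carries electrons from ubiquinol within complex III, stood at 10287, 9252, 8973 and 8639 normalised CPM in HFpEF replicates 1 to 4, against 8587, 8123, 9916 and 9906 normalised CPM in Control replicates 1 to 4. Again HFpEF replicate 1 was highest and Control replicate 2 lowest of the 8. The fold was 1.02 with a 95% interval of 0.875 to 1.182 (edgeR adjusted p = 0.918).

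**Figure D3:**
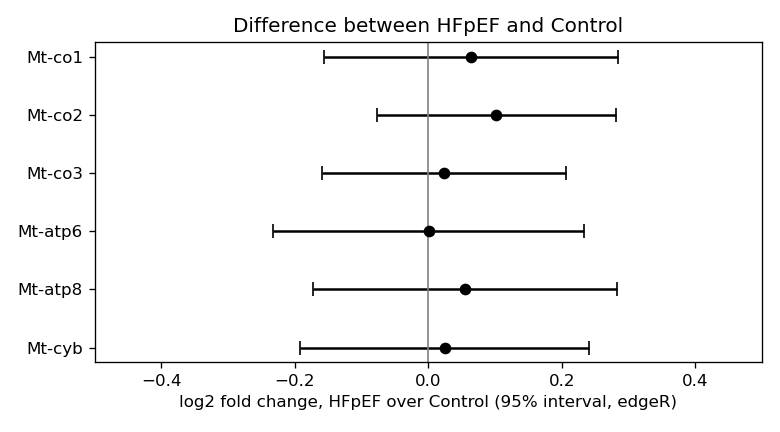
Log2 fold change of HFpEF over Control (x axis) for each gene (y axis), with its 95% interval from the edgeR fit on 4 libraries per group. All 6 intervals include 0, and they reach from -0.23 to 0.28 in all.

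The 6 intervals, each for a single gene, reached from 0.851-fold (Mt-atp6) to 1.22-fold (Mt-co1 and Mt-atp8). For each gene, changes within its own interval are therefore compatible with the libraries. The Mt-co2 interval, for example, went down only to 0.948-fold. A p that missed the threshold does not show that the levels were equal. The lowest count of any of the 6 was 55429, for Mt-atp8 in Control replicate 2, which has a counting error of 0.425%, whereas the SD of normalised CPM within a group was 6.18% to 9.94% of the mean over the 6 genes in HFpEF and 5.44% to 12.5% in Control. On the log2 scale the SD within groups was 0.086 for Mt-co2 to 0.15 for Mt-atp8, against a median of 0.149 over the 65 genes of at least 1000 mean CPM. Total counts per library ran from 31774820 to 37180059 in HFpEF and from 35945522 to 38889395 in Control.

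The parts of the 6-gene sum also overlapped between the groups for each gene. Counts grow with transcript length, and no lengths were used, so these parts describe reads and do not rank the genes by molecules. Mt-co1 gave 45.4% ± 1.61 of the 6-gene sum in HFpEF and 45.0% ± 0.410 in Control (± SD, n = 4 per group). Mt-atp6 gave 14.8% ± 1.28 in HFpEF and 15.3% ± 0.406 in Control, and Mt-cyb gave 11.4% ± 0.585 in HFpEF and 11.6% ± 0.304 in Control (± SD, n = 4 per group). The differences in these 3 parts were smaller than the SD among HFpEF libraries. Those in the Mt-co1 and Mt-atp6 parts were larger than the SD among Control libraries, and that in the Mt-cyb part was smaller. Mt-co2 gave 12.7% ± 0.249 in HFpEF and 12.3% ± 0.331 in Control, Mt-co3 gave 13.4% ± 0.286 in HFpEF and 13.7% ± 0.268 in Control, and Mt-atp8 gave 2.20% ± 0.0823 in HFpEF and 2.18% ± 0.117 in Control (± SD, n = 4 per group). The difference in the Mt-co2 part was larger than the SD of either group, although the groups overlapped, and the differences in the Mt-co3 and Mt-atp8 parts were smaller than both SDs.

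HFpEF replicate 4 lay furthest out in the make-up of the 6-gene sum by complex. The 3 complex IV genes gave 70.9%, 70.5%, 70.4% and 74.4% of the 6-gene sum in HFpEF replicates 1 to 4, against 70.6%, 72.1%, 70.3% and 70.6% in Control replicates 1 to 4. The ATP synthase pair gave 17.5%, 17.6%, 17.97% and 15.04% in HFpEF replicates 1 to 4, against 17.8%, 16.8%, 17.9% and 17.6% in Control replicates 1 to 4. Control replicate 2 lay on the same side in both measures, less far out. Per 100 counts of Mt-co1 there were 33.8, 34.7, 35.4 and 27.1 of Mt-atp6 in HFpEF replicates 1 to 4, against 35.0, 32.4, 34.8 and 34.1 in Control replicates 1 to 4. For Mt-cyb there were 25.7, 26.8, 26.2 and 22.1 counts per 100 of Mt-co1 in HFpEF replicates 1 to 4, against 26.1, 24.6, 26.1 and 26.3 in Control replicates 1 to 4. In both ratios HFpEF replicate 4 was lowest and Control replicate 2 next to it. The log2 fold change of Mt-atp6 was 0.058 when HFpEF replicate 4 was left out, -0.059 when HFpEF replicate 1 was and -0.053 when Control replicate 2 was, with edgeR adjusted p-values of 0.777, 0.791 and 0.854.

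The counts of Mt-atp8 and Mt-atp6, whose frames share a messenger RNA, also stood in a ratio that overlapped between the groups. Per 100 counts of Mt-atp6 there were 14.8, 14.7, 13.9 and 16.1 of Mt-atp8 in HFpEF replicates 1 to 4, against 14.0, 13.9, 14.96 and 14.2 in Control replicates 1 to 4. HFpEF replicate 4, where Mt-atp6 was low, had the highest ratio. Of the 15 ratios between pairs of the 6 genes, Mt-co1 to Mt-co3 moved least over the 8 libraries, by 0.0957 on the log2 scale from lowest to highest, and Mt-co1 to Mt-atp6 moved most, by 0.387. HFpEF replicate 4 held the highest or the lowest value in 11 of the 15. These ratios share genes, so they are not independent, and this count was not set against pairs of other genes.

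The groups failed to overlap in 1 of the 15 ratios, that of Mt-co3 to Mt-co2. There were 104.5, 101.9, 108.5 and 107.6 counts of Mt-co3 per 100 of Mt-co2 in HFpEF replicates 1 to 4, against 108.8, 111.7, 110.6 and 114.6 in Control replicates 1 to 4. The gap between HFpEF replicate 3 and Control replicate 1 was small beside the spread within each group. Over all 2080 pairs among the 65 genes of at least 1000 mean CPM, 15.7% had ratios whose groups did not overlap, so 1 of 15 is no more than that background. The ratio was singled out after its values were seen and was not tested.

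**Figure D4:**
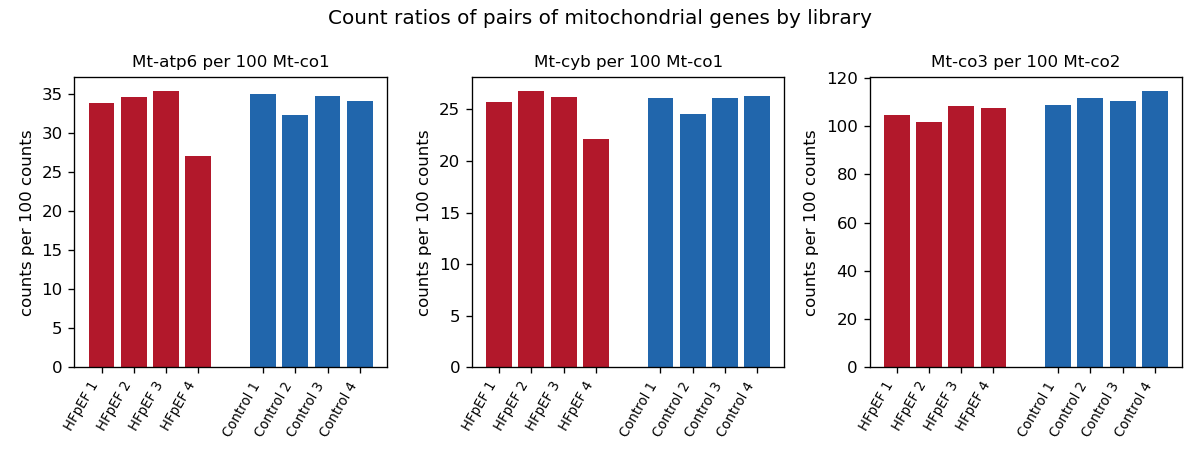
Counts of Mt-atp6 and of Mt-cyb per 100 of Mt-co1, and of Mt-co3 per 100 of Mt-co2 (y axes, from 0), in each HFpEF and Control library (x axis). HFpEF replicate 4 is lowest in the first 2 panels, with 27.1 and 22.1 counts, and in the last panel every HFpEF library is below every Control library.

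Among 7145 other genes with a mean of at least 16 CPM, ENSRNOG00000031053 followed the mean log2 level of the 6 genes most closely over the 8 libraries, with a Pearson r of 0.966 and a Spearman rho of 1.00. ENSRNOG00000002977 came next with a Pearson r of 0.962 and a rho of 0.952, where the median r of all 7145 genes was 0.045. These values are a description only, since all genes of a library share its scaling and the highest of many correlations is large by selection. ENSRNOG00000031053 averaged 900.1 CPM in HFpEF and 875.1 CPM in Control, and ENSRNOG00000002977 averaged 22.6 CPM in HFpEF and 22.5 CPM in Control (n = 4 each). Neither passed the test between the groups (edgeR adjusted p = 0.853 and 0.975). The tables used here do not give names for these identifiers. Only the 6 genes were left out of the ranking, so these could be other genes of the mitochondrial genome.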

How the data were processed

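The authors deposited 1 table of expected counts per Ensembl gene, with no normalization, for 8 libraries of rRNA-depleted total RNA. RSEM divides reads that match more than 1 gene, so a count need not be whole. The submitters' processing notes name Bowtie2 2.1.0, RSEM 1.2.15 and rn6. They state no annotation release or strand setting, so antisense reads cannot be told apart.

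Expected counts were rounded, filtered with edgeR's filterByExpr (16313 genes with 99.95% of counts, including all 6 genes), scaled by TMM and compared over 4 HFpEF and 4 Control libraries by edgeR's two-sided quasi-likelihood test (edgeR 4.0.16, R 4.3.3), with Benjamini-Hochberg adjustment over all tested genes. Standard errors and 95% intervals came from the F statistic. Shares used unrounded totals and have no test. The fit was run on simulated data in which 200 genes had known folds, all larger than those found for the 6 genes. It does not show how well folds as small as theirs would be detected. The comparison was repeated with limma-voom (limma 3.58.1), DESeq2 1.42.0, other scalings, denominators and filters, robust = TRUE, a replicate block and leaving out each library. No 2 libraries of a group were within sampling noise of each other (chi-square over degrees of freedom, 18.3 to 82.4), so all 8 were used.

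The genes and lists were chosen with earlier results of these data known. The rule was to name the 6 genes, called genes of pathway lists, and the most similar genes. Because 0 table identifiers matched the reference gene table, the lists of nuclear respiratory genes and cell type markers were not run, the tissue was not checked by markers, and positions, lengths and sequences of the 6 genes were not used.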

Additional observations from a re-analysis of the deposited data

Results flagged for a closer look

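In 4 of 76 sets of 4 values from a group, 1 library stood far from the other 3 by Dixon's test. Chance flags about 1 in 20 sets, and many of these sets share the same counts. In HFpEF replicate 4 the complex IV genes gave 74.4% of the 6-gene sum and the ATP synthase genes 15.04%, and there were 93.9 counts of Mt-atp6 per 100 of Mt-co3. In Control replicate 2 there were 24.6 counts of Mt-cyb per 100 of Mt-co1.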

How the results depend on the processing

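In all 108 refits of a single gene (6 genes, 18 alternatives) 0 gave an adjusted p under 0.05, and the lowest was 0.385 (Mt-co2 without HFpEF replicate 3). Mt-co1 and Mt-co2 stayed above 0 in each. The log2 fold change of Mt-atp6 fell below 0 under upper quartile scaling (-0.0019), total counts without TMM (-0.019) and no filter on low counts (-0.0025). With 1 library left out it ran from -0.059 to 0.058 for Mt-atp6, -0.010 to 0.054 for Mt-co3, -0.010 to 0.13 for Mt-atp8, -0.029 to 0.066 for Mt-cyb, 0.024 to 0.099 for Mt-co1 and 0.063 to 0.14 for Mt-co2. The difference in the 6-gene share was 0.180 percentage points over tested genes and 0.257 without the 10 most counted other genes, and -0.0247 to 0.440 with 1 library left out.

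The 316 called genes (251 higher, 65 lower) became 169 (140 and 29) without TMM and 1248 (856 and 392) with DESeq2, and limma-voom called 37 lower; the cause was not tested. With 1 library left out, 22 to 332 were called, 21 to 234 higher and 0 to 98 lower. The count was 186 without HFpEF replicate 2, 157 without HFpEF replicate 3, and 22, 89, 24 and 157 without Control replicates 1 to 4 in turn, in each case with fewer libraries in the test. Leaving out Control replicate 3 gave the 0, with 2522 genes of either direction at an unadjusted p under 0.05 by edgeR. The replicate block left 6 called genes, 6 higher and 0 lower, with 2568 at an unadjusted p under 0.05, and changed no call of the 6 mitochondrial genes. The replicate numbers were treated as names and not as pairs: libraries sharing a number had correlations of -0.0729, -0.0635, 0.00539 and -0.368 between their deviations from the group means, and for 0 of 8 was the best partner the one with the same number.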
